A study of Homo sapiens with 15 samples.

Results

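The miRNAs described here are the mature arms of miR-28, miR-151a and miR-708, a family that is known to have arisen from LINE-2 repeats. Every entry of the deposited tables whose name begins with hsa-miR-28-, hsa-miR-151a, hsa-miR-151b or hsa-miR-708 was taken. This gave 6 entries, the 5p and the 3p arm of 3 hairpins, among 2418 mature miRNAs in the knockdown libraries and 2189 in the immunoprecipitation libraries (2183 in both). miR-151b was not analysed here.

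Small RNA was sequenced from FTO1C1, FTO2D4 and FTO3C3, 3 clonal derivatives of the human embryonic kidney line HEK293 that were used uninduced. In the first experiment each clone was transfected with 10 nM of FTO-specific siRNA or of scrambled siRNA by lipofection and harvested after 48 h, to compare miRNA levels with and without knockdown of the m6A demethylase FTO. In the second, RNA of untreated cells was precipitated with an anti-m6A antibody or with an isotype IgG, and the RNA before precipitation (input) was sequenced as well, to find miRNAs that carry m6A. Each of the 5 groups held 3 libraries, 1 per clone. A p-value from libraries paired by clone thus measures how far the difference between groups varied over these 3 clonal lines only. FTO itself was not counted in these miRNA tables.

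miRNA reads per library numbered 1991317 to 3876806 in the knockdown experiment and 1408702 to 1500357 in the input, but 569501 to 4973238 after m6A and 186446 to 786688 after IgG precipitation. One miRNA, miR-6080, took 41.3 to 47.8% of the reads in m6A and 58.0 to 71.6% in IgG libraries, and 15.5 to 28.4% in the input. It was listed with the same count, 563404 reads, in the m6A and the IgG library of FTO2D4, which touches the relative abundance of all miRNAs in both. Between these 2 libraries 6 miRNAs had equal counts, miR-6080 among them, and 2 of the 6 had more than 100 reads. The 6 family arms together held 0.992 to 1.17% of the reads with scrambled siRNA, 0.831 to 0.935% with FTO siRNA, 0.220 to 0.440% in the input, 0.192 to 0.196% after m6A and 0.00647 to 0.0107% after IgG precipitation. In the 3 IgG libraries this share came to 48, 70 and 20 reads for all 6 arms.

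A miRNA hairpin is cut by Drosha and Dicer into a short duplex, of which one strand is usually kept by an Argonaute protein while the other is degraded. The kept strand pairs with mRNAs mainly through its seed, and the arms from both sides of one hairpin therefore have different targets. Where LINE-2 copies lie beside each other in opposite orientation, their transcript can fold back into such a hairpin, and this happened in several places of the genome. miR-28 lies in an intron of LPP, a gene for a protein of cell adhesion sites, miR-151a in an intron of the gene for focal adhesion kinase, and miR-708 in an intron of TENM4, a gene for a teneurin. miR-28-5p and miR-28-3p have been described with different effects in colorectal cancer cells, miR-151a-5p as a promoter of cell migration that acts on ARHGDIA, and miR-708-5p as a miRNA that responds to stress of the endoplasmic reticulum. m6A is laid down on adenosines and read by proteins that change how an RNA is processed or how long it lasts.

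The sequences of the arms show how the family members resemble each other. By name, 3 of the 6 arms matched mature sequences of RefSeq (GRCh38.p14), as did 2127 of all 2424 entries of both tables. They are shown together with miR-3139, which was the 1 miRNA outside the family, among those matched, to have a seed of one of these 3 arms, and capitals mark the seed, bases 2 to 8 from the 5′ end.
hsa-miR-28-3p: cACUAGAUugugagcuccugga
hsa-miR-708-3p: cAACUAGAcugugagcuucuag
hsa-miR-708-5p: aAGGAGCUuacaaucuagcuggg
hsa-miR-3139: uAGGAGCUcaacagaugccuguu
miR-28-3p lies at chr3:188688834-188688855 on the plus strand within MIR28, inside LPP. miR-708-5p and miR-708-3p lie at chr11:79402077-79402099 and chr11:79402032-79402053 on the minus strand within MIR708, inside TENM4, and miR-3139 lies at chr4:143343469-143343491 on the plus strand. No sequence is shown for miR-28-5p, miR-151a-5p and miR-151a-3p, which were not matched. Their seeds were therefore not compared with those of the other arms or of miR-3139. The 3p arms of miR-28 and miR-708 share a run of 8 bases (UGUGAGCU, from base 9 and base 10) and one of 6 bases (ACUAGA, from base 2 and base 3), which the shift by 1 base keeps out of register, so that their seeds differ. miR-708-5p and miR-3139 have the same seed and share no longer run than its 7 bases. The letters GAC or AAC, the core of the m6A methyltransferase motif, were found on the given strand in 796 of 2127 matched miRNAs (37.4%). miR-28-3p and miR-708-5p held neither, whereas miR-708-3p held both. Alone, GAC was present in 24.2% and AAC in 16.6% of the miRNAs.

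The 6 arms covered a wide range of levels in these cells. Levels are reads per 1000000 miRNA reads (RPM) within a library, not divided by length since mature miRNAs are of nearly the same length, means are ± SD (n = 3 clones), and values of single libraries are given in the order FTO1C1, FTO2D4, FTO3C3. With scrambled siRNA, miR-151a-3p had the highest level at 5897, 4498 and 5278 RPM, place 27 of 2418 miRNAs by mean. It was followed by miR-151a-5p at 3596, 3005 and 3167 RPM, and by miR-28-3p at 1895, 2003 and 2456 RPM. These 3 arms held on average 47.4, 29.7 and 19.4% of the reads of the family. miR-28-5p stood at 227, 295 and 280 RPM, miR-708-3p at 61.6, 63.7 and 69.3 RPM, and miR-708-5p at 48.4, 54.8 and 49.7 RPM. No neighbours in this order overlapped between their lowest and highest libraries. With FTO siRNA the order was the same, but the ranges of miR-708-3p and miR-708-5p overlapped.

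The input of untreated cells had the same order of mean levels with more spread between clones. There, miR-151a-3p stood at 1171, 1904 and 2023 RPM, miR-151a-5p at 513, 970 and 1308 RPM and miR-28-3p at 292, 578 and 733 RPM. miR-28-5p stood at 152, 360 and 287 RPM, miR-708-3p at 51.1, 50.7 and 26.0 RPM and miR-708-5p at 19.2, 26.7 and 20.7 RPM. Between neighbours, only miR-28-5p and miR-708-3p did not overlap, and FTO1C1 was the lowest clone for all but miR-708-3p. Knockdown and input libraries came from separate experiments and tables, and no level was tested between them.

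**Figure D1:**
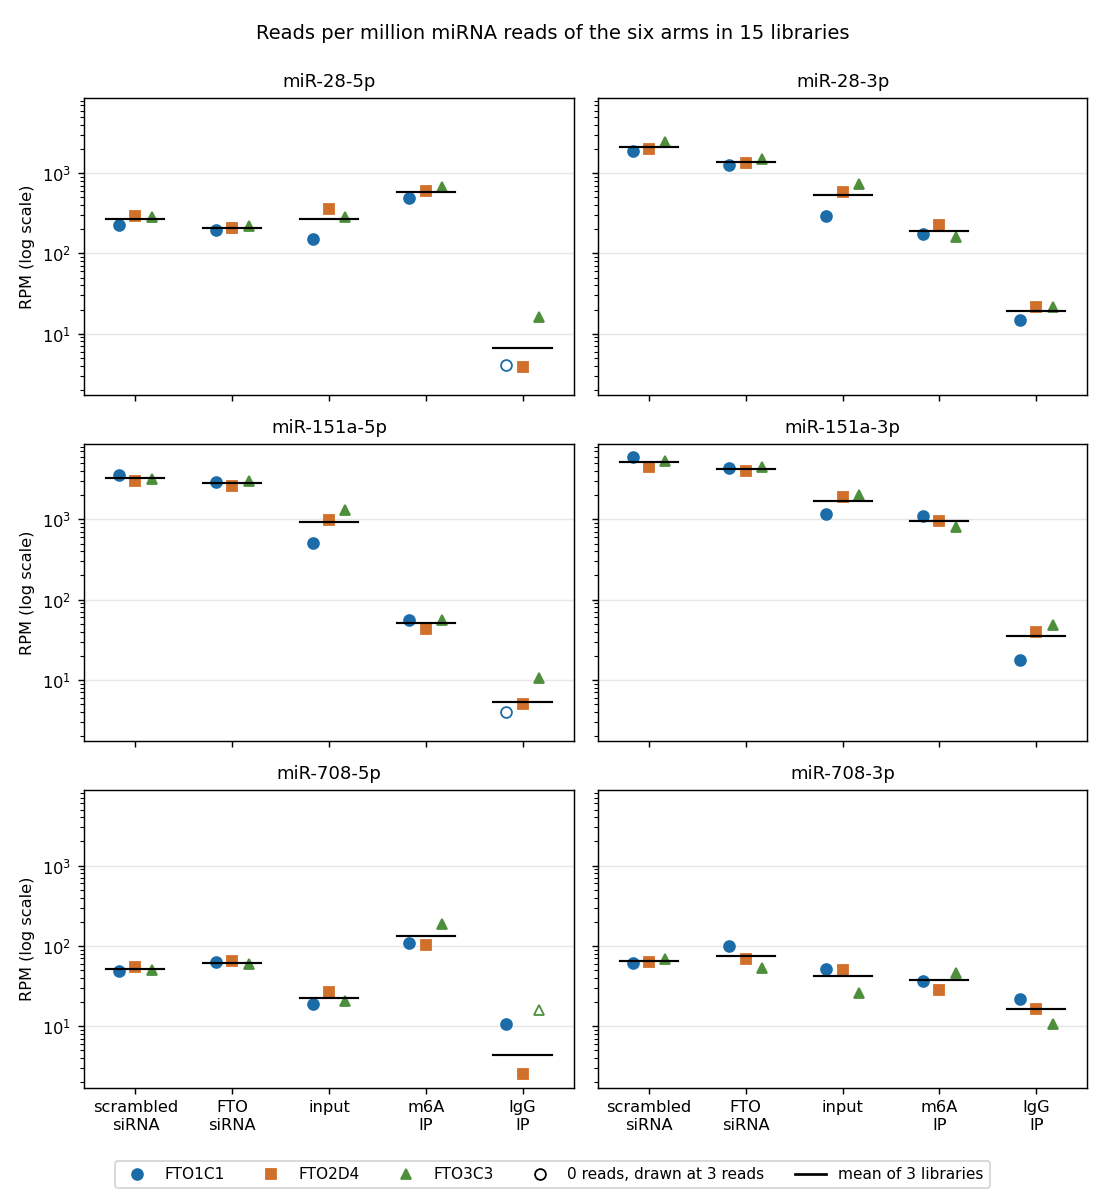
Level of each arm in reads per 1000000 miRNA reads (RPM, log axis) in 15 libraries, with symbols for the 3 clones, a line at the mean of each group, and open symbols for libraries with 0 reads, drawn at the level of 3 reads (the mean counts them as 0). miR-28-5p and miR-708-5p stand higher in the m6A precipitate than in the input, miR-151a-5p stands far lower, and all 6 arms are lowest after IgG precipitation.

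FTO knockdown was compared with scrambled siRNA within each clone. miR-28-3p was lower with FTO siRNA in all 3 clones, at 1263, 1339 and 1518 RPM against the 1895, 2003 and 2456 RPM given above. All its FTO siRNA libraries lay below all scrambled ones. The ratio within clones was 0.667, 0.669 and 0.618 (mean 0.651 ± 0.0286), and the fitted log2 fold change was -0.62 (SE 0.13, adjusted p = 0.0323, edgeR's quasi-likelihood test with the clone as a block and Benjamini-Hochberg adjustment over 2374 miRNAs). miR-28-3p was the only family arm to pass, that is, 1 of 6 arms was called lower and none higher, where 0.505% of all tested miRNAs were called lower and 4.97% higher (5.48% in either direction). By fold change it stood at place 2343 of 2374 from the highest. This call did not hold without the block (adjusted p = 0.11 by edgeR), without FTO1C1 (adjusted p = 0.21, where edgeR called 0 of all miRNAs with 327 at an unadjusted p under 0.05) or without FTO3C3 (adjusted p = 0.0526).

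The other strand of the miR-28 hairpin and both strands of miR-151a were also lower in every clone, but did not pass. miR-28-5p stood at 196, 208 and 221 RPM with FTO siRNA, below all 3 scrambled libraries, and its ratio averaged 0.786 ± 0.0767 (log2 fold change -0.35, adjusted p = 0.183, edgeR). miR-151a-3p stood at 4309, 4001 and 4511 RPM (mean ratio 0.825 ± 0.0835, log2 fold change -0.28, adjusted p = 0.205) and overlapped with the scrambled libraries by a narrow margin. miR-151a-5p stood at 2924, 2633 and 2986 RPM, below all scrambled libraries, with an average ratio of 0.877 ± 0.0648 (log2 fold change -0.19, adjusted p = 0.379).

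The arms of miR-708 had fitted values of the other sign and did not pass either. miR-708-5p, the arm usually taken as the active strand, stood at 62.4, 64.1 and 60.1 RPM with FTO siRNA, above all 3 scrambled libraries, and its ratio averaged 1.22 ± 0.0606 (log2 fold change 0.29, adjusted p = 0.342, edgeR). miR-708-3p stood at 101, 69.6 and 53.7 RPM, with ratios of 1.63, 1.09 and 0.774 and a log2 fold change of 0.16 (adjusted p = 0.67). Its ratios thus lay on both sides of 1, and the groups overlapped. The median log2 fold change was -0.24 over the 6 arms and 0.29 over all 2374 miRNAs. When libraries were scaled with TMM factors, the median of all miRNAs moved to -0.00035 and their calls from 118 higher and 12 lower to 21 higher and 34 lower. miR-28-3p then had a log2 fold change of -0.91 (adjusted p = 0.012), whereas both miR-708 arms turned to the other sign, miR-708-5p to -0.0035 and miR-708-3p to -0.13. miR-708-5p had therefore the fold change of a median miRNA under both scalings, and the direction of its difference rests on the scale.

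**Figure D2:**
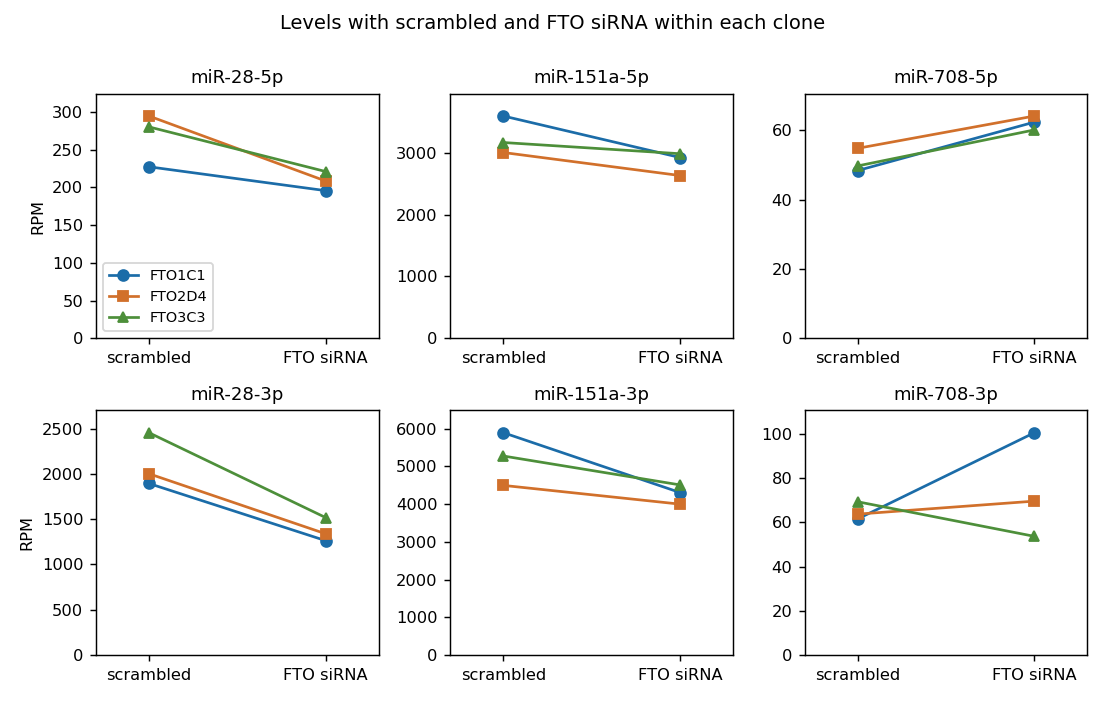
Level of each arm (RPM, linear axis from 0) with scrambled and with FTO siRNA, with a line for each of the 3 clones. The lines of both miR-28 arms and both miR-151a arms go down in every clone, those of miR-708-5p go up in every clone, and those of miR-708-3p go both ways; of the 6 arms, miR-28-3p passed the test.

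Precipitation with the m6A antibody recovered the family at higher RPM than IgG, but by very different factors for the 6 arms. miR-28-5p had 483, 591 and 678 RPM in the m6A libraries against 0, 3.81 and 16.1 RPM in the IgG libraries, which stands for 0, 3 and 3 reads. Its ratio was at least 119 in FTO1C1, where the count of 0 was set to 3 reads, 155 in FTO2D4 (95% exact interval 52.9 to 754) and 42.1 in FTO3C3 (14.4 to 204). The intervals cover counting error only. The fitted log2 fold change was 7.18 (SE 0.65, adjusted p = 4.35e-05, edgeR over 2054 miRNAs), the highest of the family.

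The other strand of miR-28 was recovered less. miR-28-3p had 176, 227 and 161 RPM after m6A and 14.8, 21.6 and 21.5 RPM after IgG precipitation, an average ratio of 9.95 ± 2.23 (log2 fold change 3.34, SE 0.37, adjusted p = 0.000164). For miR-151a the fitted fold changes of the strands had the opposite order. This order rests on 0, 4 and 2 IgG reads of miR-151a-5p, and the strand shares of the m6A and the IgG libraries overlapped. miR-151a-3p had 1097, 952 and 792 RPM against 17.5, 39.4 and 48.3 RPM, with ratios of 62.6, 24.2 and 16.4 and a log2 fold change of 4.89 (SE 0.43, adjusted p = 3.45e-05). miR-151a-5p had 56.2, 42.6 and 55.7 RPM against 0, 5.08 and 10.7 RPM, and a log2 fold change of 3.71 (SE 0.71, adjusted p = 0.00334). Its ratio was at least 13.9 in FTO1C1, 8.37 in FTO2D4 and 5.19 in FTO3C3 (exact interval 1.42 to 43.1, on 2 IgG reads).

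In miR-708 the 5p strand again led. miR-708-5p had 109, 103 and 186 RPM against 10.8, 2.54 and 0 RPM and a log2 fold change of 4.47 (SE 0.60, adjusted p = 0.000478, edgeR). Its ratio was 10.1 in FTO1C1, 40.4 in FTO2D4 (exact interval 11.0 to 337, on 2 IgG reads) and at least 11.5 in FTO3C3. miR-708-3p had 36.9, 28.6 and 46.2 RPM against 21.6, 16.5 and 10.7 RPM, with ratios of 1.71, 1.73 and 4.31 (exact interval 1.18 to 35.8 for the last, on 2 IgG reads), and was the arm that did not pass (log2 fold change 1.05, SE 0.43, adjusted p = 0.0796; 0.0384 without the block). The m6A libraries lay above all IgG libraries for each of the 6 arms, and the share of all miRNAs for which this held was not counted. Thus 5 of 6 arms were called higher and none lower, where 38.6% of all tested miRNAs were called higher and 1.27% lower (39.8% in either direction). miR-28-5p, miR-151a-5p and miR-708-5p, with 0 to 8 IgG reads per library, passed the filter on low counts only through the m6A libraries. So did miR-708-3p, with 16, 13 and 2 IgG reads. For these arms the filter favoured the higher direction. The median log2 fold change was 4.09 over the 6 arms and 0.83 over all 2054 miRNAs. With TMM factors the median of all miRNAs moved to 0.06 and their calls from 792 higher and 26 lower to 453 higher and 302 lower, but the 5 arms were still called higher, from 2.56 for miR-28-3p to 6.41 for miR-28-5p. With totals taken without miR-6080 the same 5 arms were called (2.61 for miR-28-3p to 6.45 for miR-28-5p), among 446 higher and 257 lower calls of all miRNAs. With a clone left out the same 5 arms were called, but the sizes moved, for miR-28-5p from 6.44 (without FTO1C1) to 8.07 (without FTO3C3), for miR-151a-5p from 2.79 (without FTO1C1) to 4.43 (without FTO2D4), for miR-708-5p from 4.05 (without FTO3C3) to 5.88 (without FTO1C1) and for miR-151a-3p from 4.36 (without FTO1C1) to 5.22 (without FTO3C3).

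Against the input, which shares the m6A libraries with the comparison above, the family split. miR-708-5p rose from 19.2, 26.7 and 20.7 RPM in the input to 109, 103 and 186 RPM, with ratios of 5.68, 3.85 and 8.99 and a log2 fold change of 2.54 (SE 0.44, adjusted p = 8.69e-06, edgeR over 2174 miRNAs). miR-28-5p rose from 152, 360 and 287 RPM to 483, 591 and 678 RPM, with ratios of 3.18, 1.64 and 2.37 and a log2 fold change of 1.21 (SE 0.39, adjusted p = 0.00717; 0.112 without FTO1C1). In both arms all m6A libraries lay above all input libraries.

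By contrast, miR-151a-5p fell from 513, 970 and 1308 RPM to 56.2, 42.6 and 55.7 RPM. Its ratios were 0.109, 0.0439 and 0.0426 and its log2 fold change was -4.12 (SE 0.46, adjusted p = 1.48e-08, edgeR). miR-28-3p fell from 292, 578 and 733 RPM to 176, 227 and 161 RPM (log2 fold change -1.43, SE 0.41, adjusted p = 0.00258). In both arms the groups did not overlap. miR-151a-3p was lower in the m6A library of each clone (ratios of 0.938, 0.50 and 0.392) but did not pass (log2 fold change -0.82, SE 0.41, adjusted p = 0.0688; 0.024 without the block). miR-708-3p had ratios of 0.721, 0.565 and 1.78 and a log2 fold change of -0.14 (SE 0.41, adjusted p = 0.767), with overlap between the groups.

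Hence 2 of 6 arms were called higher and 2 lower, where 66.8% of all tested miRNAs were called higher and 10.5% lower (77.3% in either direction). The median log2 fold change was -0.48 over the 6 arms and 1.65 over all 2174 miRNAs, and only miR-708-5p lay above the latter. The scale matters here. With TMM factors the median of all miRNAs moved to 0.10 and their calls from 1452 higher and 229 lower to 575 higher and 614 lower. miR-708-5p was still called higher (log2 fold change 0.99, adjusted p = 0.0254, edgeR), but miR-28-5p turned to -0.34 (adjusted p = 0.359), and the other 4 arms were called lower, from -1.68 for miR-708-3p to -5.68 for miR-151a-5p.

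**Figure D3:**
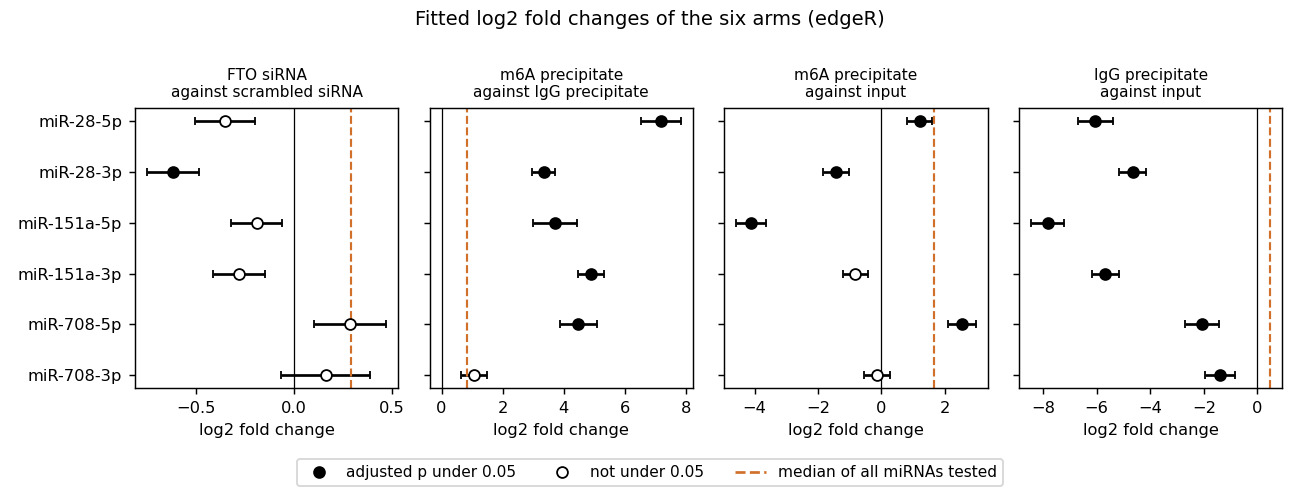
Fitted log2 fold changes (edgeR, total miRNA reads as library size) of the 6 arms in the 4 comparisons, with bars for the SE, filled symbols for an adjusted p under 0.05 and a dashed line at the median of all tested miRNAs. The axes differ: the knockdown differences span less than 1 log2 unit, those of the precipitates up to about 8, and against the input miR-28-5p lies below the dashed line at 1.65 and miR-708-5p above it.

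The ratio of both strands of a hairpin within a library does not depend on how libraries are scaled. In the input, the 5p arm took the smaller share in all 3 hairpins, namely 34.2, 38.4 and 28.1% of the reads of miR-28 in the 3 clones, 27.3, 34.5 and 44.3% of miR-708 and 30.5, 33.8 and 39.3% of miR-151a. After m6A precipitation the 5p arm of miR-28 took 73.3, 72.2 and 80.8%, and that of miR-708 took 74.7, 78.2 and 80.1%. The 5p arm of miR-151a, by contrast, took 4.87, 4.28 and 6.57%. The m6A and the input libraries did not overlap in any of the 3 hairpins, and the share of all hairpins for which this held was not counted. The 95% exact binomial intervals of single libraries did not overlap either, since the lowest m6A value of miR-708, which rests on 83 reads, had an interval of 64.0 to 83.6% and the highest input value, on 70 reads, one of 32.4 to 56.7%.

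Thus the predominant strand in the m6A precipitate was 5p for miR-28 and miR-708 and 3p for miR-151a, and for miR-28 and miR-708 it was the strand that was the minor one in the input. Expressed as log2 of 5p over 3p reads (with 0.5 added to each count), the difference between m6A and input was 2.63 ± 0.72 for miR-28 and 2.67 ± 0.31 for miR-708, and -3.26 ± 0.22 for miR-151a. An exact two-sided sign-flip permutation test gave p = 0.25 for each, the smallest value that 3 clones allow (0.429 after Benjamini-Hochberg over 12 such tests). In a fit of this difference with limma over all 598 hairpins with enough reads on both arms, chosen after the values had been seen, the adjusted p was 0.0017 for miR-28, 0.00198 for miR-708 and 0.000277 for miR-151a. Such shifts were common: 29.9% of all hairpins were called toward 5p and 23.1% toward 3p (53.0% in either direction). The median over all hairpins was 0.31, and the quartiles were -1.31 and 1.86. Of the 598 hairpins, 96 shifted further toward 5p than miR-28, 93 further than miR-708, and 39 further toward 3p than miR-151a.

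**Figure D4:**
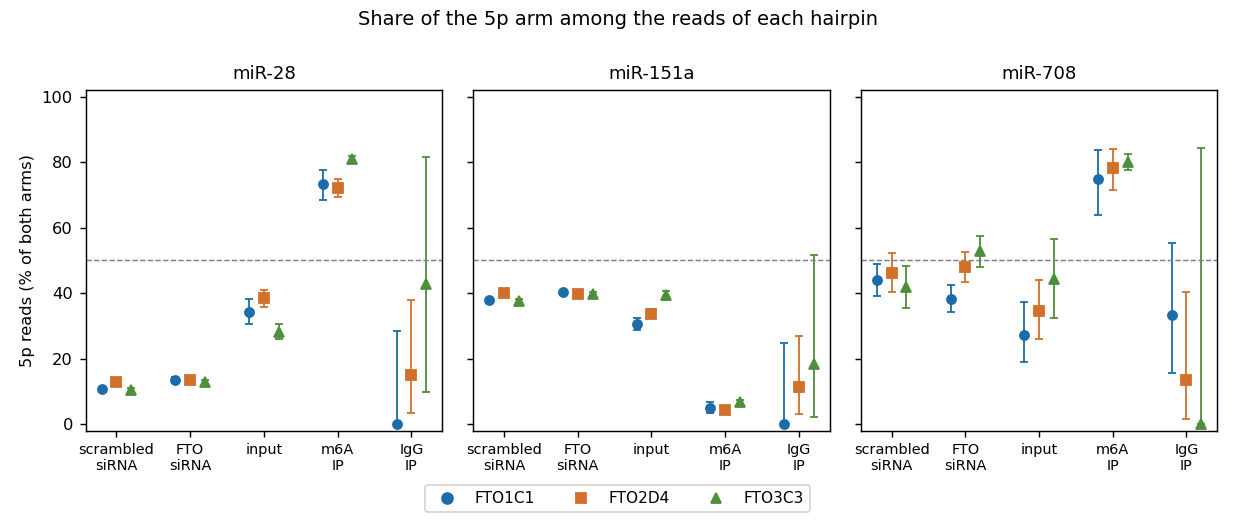
Share of the 5p arm among the reads of each hairpin (%), for the 3 clones in the 5 groups, with 95% exact binomial intervals that cover counting error only and a dashed line at 50%. In the m6A precipitate miR-28 and miR-708 lie above 70% and miR-151a below 7%, whereas in the input all 3 hairpins lie between 27.3 and 44.3%.

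**Figure D5:**
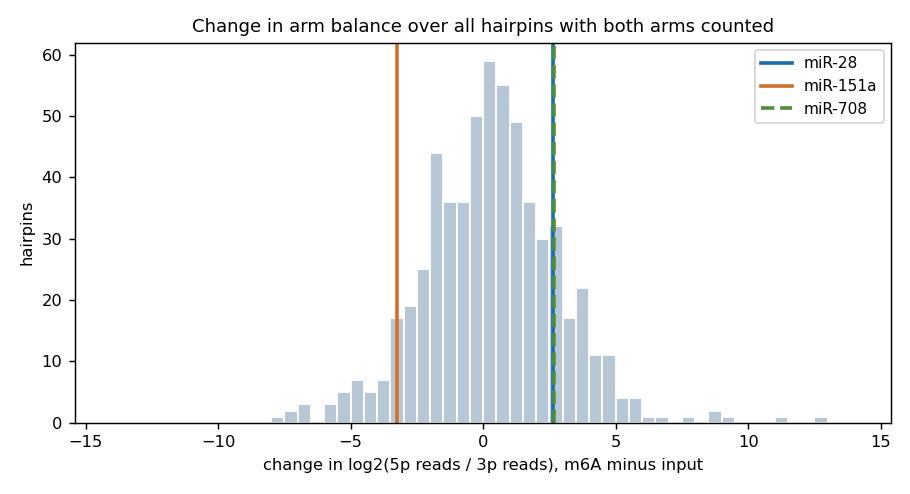
Histogram of the change in log2(5p reads / 3p reads) between the m6A precipitate and the input (mean of 3 clones) over 598 hairpins, with lines at the 3 hairpins of the family. miR-28 (2.63) and miR-708 (2.67) lie above the upper quartile of 1.86 and miR-151a (-3.26) lies below the lower quartile of -1.31.

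The strand shares were also compared in the other groups. FTO siRNA and scrambled siRNA libraries had 13.2 ± 0.425% and 11.3 ± 1.38% of 5p reads for miR-28, 40.0 ± 0.394% and 38.5 ± 1.38% for miR-151a, and 46.4 ± 7.41% and 44.0 ± 2.23% for miR-708. None of these differences passed in limma (adjusted p = 0.429, 0.654 and 0.862 over 693 hairpins, of which 1.88% passed, 1.01% toward 5p and 0.866% toward 3p), and the groups overlapped in all 3 hairpins. In the IgG libraries the shares rested on 2 to 35 reads per hairpin and clone, with values from 0 to 42.9% for miR-28, 0 to 18.2% for miR-151a and 0 to 33.3% for miR-708. Between m6A and IgG, limma gave differences of 4.04 for miR-28 (adjusted p = 0.00332), 3.70 for miR-708 (adjusted p = 0.00327) and -1.03 for miR-151a (adjusted p = 0.237) over 591 hairpins, of which 30.1% passed, 19.5% toward 5p and 10.7% toward 3p. With 1 read added to each count in place of 0.5, miR-28 had 3.66 and miR-708 had 3.35. The exact sign-flip permutation test gave p = 0.25 for both, the smallest value that 3 clones allow. The 5p arms of all 3 hairpins passed the filter on reads per arm only through the m6A libraries, which favoured a shift toward 5p. For miR-151a the m6A and the IgG libraries overlapped. Between IgG and input, 58.2% of 428 hairpins passed in limma, 26.4% toward 5p and 31.8% toward 3p. The 5p arms of all 3 hairpins passed the filter on reads per arm only through the input libraries, which favoured a shift toward 3p. miR-151a shifted toward 3p in all 3 clones (-2.23, adjusted p = 9.37e-05; -2.70 to -1.57 with a clone left out). This value rests on 0, 4 and 2 IgG reads of its 5p arm, and was -1.81 with 1 read added to each count. The exact sign-flip permutation test gave p = 0.25 for miR-151a. miR-28 had -1.41 (adjusted p = 0.0421), but its clones ranged from -3.58 to 0.99, the groups overlapped, the exact sign-flip permutation test gave p = 0.5, and the value was -0.33 without FTO1C1, -2.61 without FTO3C3 and -1.03 with 1 read added to each count in place of 0.5. miR-708 did not pass (-1.02, adjusted p = 0.183).

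IgG precipitation shows what was recovered without the m6A antibody, with libraries that the comparisons above also used. All 6 arms were called lower than in the input, with log2 fold changes of -7.84 for miR-151a-5p, -6.06 for miR-28-5p, -5.68 for miR-151a-3p, -4.66 for miR-28-3p, -2.07 for miR-708-5p (adjusted p = 0.00256, edgeR) and -1.39 for miR-708-3p (adjusted p = 0.02). Of all 1941 tested miRNAs, 21.8% were called lower and 36.8% higher (58.6% in either direction). miR-28-5p, miR-151a-5p and miR-708-5p passed the filter on low counts only through the input libraries, which favoured the lower direction for these arms. The median was -5.17 over the 6 arms and 0.49 over all tested miRNAs. With TMM factors all 6 arms were still lower, among 559 higher and 586 lower calls of all miRNAs in place of 714 and 423. IgG and input libraries did not overlap in any arm, but the share of all miRNAs for which this held was not counted. The arms of miR-708, which had the lowest levels in the input, had the smallest differences. The calls of the miR-708 arms did not hold when the totals were taken without miR-6080, which left -0.90 for miR-708-5p (adjusted p = 0.164) and -0.23 for miR-708-3p (adjusted p = 0.674) and moved the calls of all miRNAs to 1231 higher and 273 lower. The value of miR-708-5p was -3.64 without FTO1C1 and -1.39 without FTO2D4, and that of miR-28-5p was -7.06 without FTO3C3 and -5.46 without FTO1C1. Neither miR-708 arm held without FTO2D4 (adjusted p = 0.0912 and 0.115), and miR-708-3p did not hold without FTO1C1 (adjusted p = 0.132).

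miR-3139, which shares the seed of miR-708-5p but is no member of the family, had few reads. It had 24, 23 and 25 reads in the input, 20, 58 and 232 after m6A and 8, 14 and 4 after IgG precipitation. Its log2 fold changes were 1.36 between m6A and IgG (adjusted p = 0.0244, edgeR) and 1.33 between m6A and input (adjusted p = 0.00207), where miR-708-5p had 4.47 and 2.54. Of all miRNAs, 38.6% and 66.8% were called higher in these comparisons, with medians of 0.83 and 1.65. Between m6A and IgG, miR-3139 passed the filter on low counts only through the m6A libraries, which favoured the higher direction. With FTO siRNA it was not called (log2 fold change 0.54, adjusted p = 0.141).

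Other miRNAs that have been assigned to LINE-2 repeats (arms of miR-95, miR-325, miR-370, miR-374a, miR-374b, miR-421, miR-493, miR-545 and miR-616) were counted beside the family. The list was drawn up from general knowledge and was not checked against a repeat annotation. Of the 16 listed in the knockdown table, 1 was called higher and none lower (4.97% and 0.505% of all miRNAs), and the median log2 fold change was 0.07, against 0.29 over all miRNAs. The called one was miR-493-5p (1.96, adjusted p = 0.000874, edgeR), followed by miR-493-3p (0.92). The lowest values were those of miR-370-5p and miR-421 (-0.23 each). Between m6A and IgG, 6 of 13 tested were called higher and none lower, where 38.6% and 1.27% of all miRNAs were, and the median was 1.14 against 0.83 over all. The values ran from -0.79 for miR-545-5p and -0.47 for miR-616-5p to 7.22 for miR-374b-5p and 7.43 for miR-421. Between m6A and input, 5 of 14 were called higher and 4 lower, where 66.8% and 10.5% of all miRNAs were, and the median was 0.71 against 1.65 over all. miR-421 (3.36) and miR-616-3p (3.04) were the highest and both miR-374a arms the lowest (-4.02 for the 3p and -2.61 for the 5p arm). Between IgG and input, 2 of 12 were called higher and 7 lower, where 36.8% and 21.8% of all miRNAs were, and the median was -2.19 against 0.49 over all. The highest were miR-616-3p (2.55) and miR-545-5p (1.29), and the lowest miR-374a-3p (-6.09) and miR-374b-5p (-6.02).

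Across the 15 libraries the pair of arms with the most similar pattern came from different hairpins. The Pearson correlation of log2(RPM + 1) was 0.978 between miR-28-3p and miR-151a-3p and 0.972 between miR-28-3p and miR-151a-5p, while between the arms of one hairpin it was 0.950 for miR-151a, 0.741 for miR-28 and 0.743 for miR-708. The lowest was that of miR-151a-5p with miR-708-5p (0.484). The points share 3 clones, and the precipitates differ from the other libraries in depth, so that these values describe the pattern over the 5 groups. Among 1777 miRNAs with a mean of at least 15 RPM, the pattern closest to miR-28-3p was that of miR-30d-5p (0.992), to miR-151a-3p that of miR-10b-5p (0.996) and to miR-151a-5p that of miR-30a-5p (0.981). The closest to miR-28-5p was miR-1322 (0.963), to miR-708-5p miR-29b-2-5p (0.968) and to miR-708-3p miR-141-3p (0.947).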

How the data were processed

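The files deposited hold counts of reads on each mature miRNA, without normalization, in one table for the knockdown and one for the precipitation libraries. According to their methods, adapters were removed with cutadapt, reads of 16 to 28 bp were kept and each read was assigned to the miRBase 20 entry it matched best by stretches of exact match, without requiring the whole read to match. Without a molecular identifier, reads are not independent molecules. RPM were computed from total miRNA reads. Each comparison was fitted on the whole table with edgeR 4.0.16 (quasi-likelihood test, filterByExpr with a minimum count of 10, clone as a block; R 4.3.3), Benjamini-Hochberg adjusted, called under 0.05. Arm balance was fitted with limma 3.58.1. Both fits were run on simulated counts drawn without differences between clones, so that this test does not cover the block. Alternatives were TMM factors, DESeq2 1.42.0, no filter, no block, totals without miR-6080, 1 fit of all precipitation libraries, and each clone left out.

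Clones pair the libraries. Correlations between the deviations of same-clone libraries (each from its group mean) were 0.334, 0.225 and 0.294 in the knockdown, 0.0207 to 0.0386 for m6A and IgG, -0.0782 to -0.0158 for m6A and input, and -0.0228 to 0.0692 for IgG and input. Replicates differed by more than sampling noise (chi-square per degree of freedom 6.11 or more).

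The family and lists were chosen with earlier results of these data known. Named miRNAs are all family arms, entries with a seed of a family arm matched to a sequence, the other LINE-2 list (the 2 highest and 2 lowest per comparison) and the nearest patterns. miR-6165, which begins like miR-616, was left out.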

Additional observations from a re-analysis of the deposited data

How the results depend on the processing

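In the knockdown, 1 arm was called, and 0 without the replicate block (leaving out the pairing by clone), 0 to 1 with a clone left out and 3 with DESeq2 (miR-28-3p, miR-28-5p and miR-151a-3p, all lower). Of all miRNAs, 5.48% were called in the main fit, 1.73% without the block, 0 to 8.51% with a clone left out and 3.75% with DESeq2. DESeq2 called 1.35% of all miRNAs higher and 2.40% lower, in place of 4.97% and 0.505%. The block changed 2 other calls, those of miR-708-3p between m6A and IgG and of miR-151a-3p between m6A and input given above, where 6 and 5 arms were called without it in place of 5 and 4. Without it, 42.9% and 79.5% of all miRNAs were called in these comparisons, in place of 39.8% and 77.3%. With a clone left out, 5 arms were called between m6A and IgG, 3 to 4 between m6A and input and 4 to 6 between IgG and input. The shares of all miRNAs called were then 23.51 to 33.92%, 69.08 to 73.95% and 42.6 to 54.13%. The log2 fold changes that turned sign were those of miR-708-5p in the knockdown (-0.0035 with TMM, -0.0071 with DESeq2), miR-708-3p in the knockdown (-0.13 with TMM and with DESeq2; -0.12 to 0.43 with a clone left out), miR-28-5p between m6A and input (-0.34 with TMM, -0.37 with DESeq2) and miR-708-3p between m6A and input (0.32 with totals without miR-6080; -0.66 to 0.22 with a clone left out, 0.02 without FTO1C1). Mean ratios crossed 1 for miR-708-3p in the knockdown (0.933 without FTO1C1, up to 1.36 without FTO3C3, 0.939 with TMM), miR-28-5p against input (0.826 with TMM) and miR-708-3p against input (0.643 without FTO3C3, up to 1.25 without FTO2D4, 0.327 with TMM). The arm balance of miR-708 in the knockdown ranged from -0.12 to 0.37 with a clone left out, while those of the 3 hairpins between m6A and input kept their sign in all alternatives run, at 2.23 to 2.91 (miR-28), 2.54 to 2.84 (miR-708) and -3.35 to -3.14 (miR-151a). The cause of these changes was not tested. Of 204 alternative values of fold changes, 177 kept direction and call. A sum of miR-151a-5p and miR-151b was not run, since no entry was named miR-151b. IgG libraries held 0 to 31 reads per arm, which limits every ratio against them.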
